A study of Mus musculus with 33 samples.

Results

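The step from day 4 to day 6 of embryoid body (EB) differentiation was examined in wild-type (WT) E14Tg2a mouse embryonic stem cells. It was chosen by the day and line in the sample labels alone: 2 libraries on day 6 (replicates 2 and 3) and 3 on day 4 (replicates 1 to 3), which makes 5 of the 33 libraries of the series. E14Tg2a is a 129/Ola mouse ESC line, grown on gelatine in DMEM with fetal calf serum and LIF, and EBs were made in DMEM with fetal calf serum. The clones ΔK9.1 and ΔK9.2, used here for comparison and in the estimate of the spread, are E14Tg2a derivatives of 1 clone each that carry a homozygous deletion upstream of *Nanog*, and they were differentiated in the same way. EBs stayed in suspension without LIF at first and were then plated at low density on gelatinised culture dishes, according to the study's methods. Day 4 is therefore a suspension culture, and days 6 and 8 are adherent cultures. The passage of time and the plating therefore cannot be told apart in any value below that compares day 4 with a later day. RNA was sequenced from stranded poly-A libraries, and the deposited values are TPM (transcript abundances corrected for length and library total) for 16336 genes.

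When pluripotent cells leave the epiblast state they can pass through a primitive streak-like state, in which cells switch on T-box and homeobox factors such as *T*, *Eomes* and *Mixl1*, leave the epithelium and become mesoderm or endoderm. In the embryo, NODAL, WNT and BMP ligands induce this state, and the ingressing cells exchange E-cadherin for N-cadherin. EBs also form an outer layer of extra-embryonic endoderm that secretes apolipoproteins and other plasma proteins. The comparison asks which genes switched on or off as wild-type EBs took this step. In bulk RNA, a larger share of cells of a type and more RNA per cell cannot be told apart.

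The 5 libraries were close to each other within a day. Pearson's r of log2(TPM + 1) over all genes was at least 0.973 within day 4 and 0.985 within day 6, against at most 0.960 between the days, as a description. They held 13326 to 13596 genes at 1 TPM or more, and mitochondrially encoded transcripts made up 2.30% to 3.34% of the TPM. The depth per library is unknown, since TPM do not keep it. Some differences between replicates touch results below: day 4 replicate 1 held the most RNA of extra-embryonic endoderm genes, and day 6 replicate 2 held more RNA of *Hand1* and other lateral plate genes than replicate 3.

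Between day 4 and day 6, 848 of 16336 genes rose and 676 fell, with calls made by limma at an adjusted p under 0.05 and a log2 fold change over 1 (on log2(TPM + 1), which understates changes of genes near 1 TPM). These counts are 5.19% and 4.14% of these 16336 genes, the background against which each group below is read. The background leaves out genes that the table does not hold. After median ratio scaling 762 genes rose and 791 fell, so which direction held more genes depended on the scaling. The rises were larger than the falls. A change of at least 2 on the log2 scale was reached by 222 rising and 48 falling genes, and 35 genes rose by at least 4. The median over all genes was 0.06. Single genes compared by an exact permutation test of 2 against 3 libraries could not give a two-sided p below 0.2, so the calls rest on the spread pooled over all 33 libraries. The study's methods describe the replicates as independent assays, and p-values measure the spread between these libraries. Without day 6 replicate 2 the count of falling genes was 306, and 566 genes rose.

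**Figure D1:**
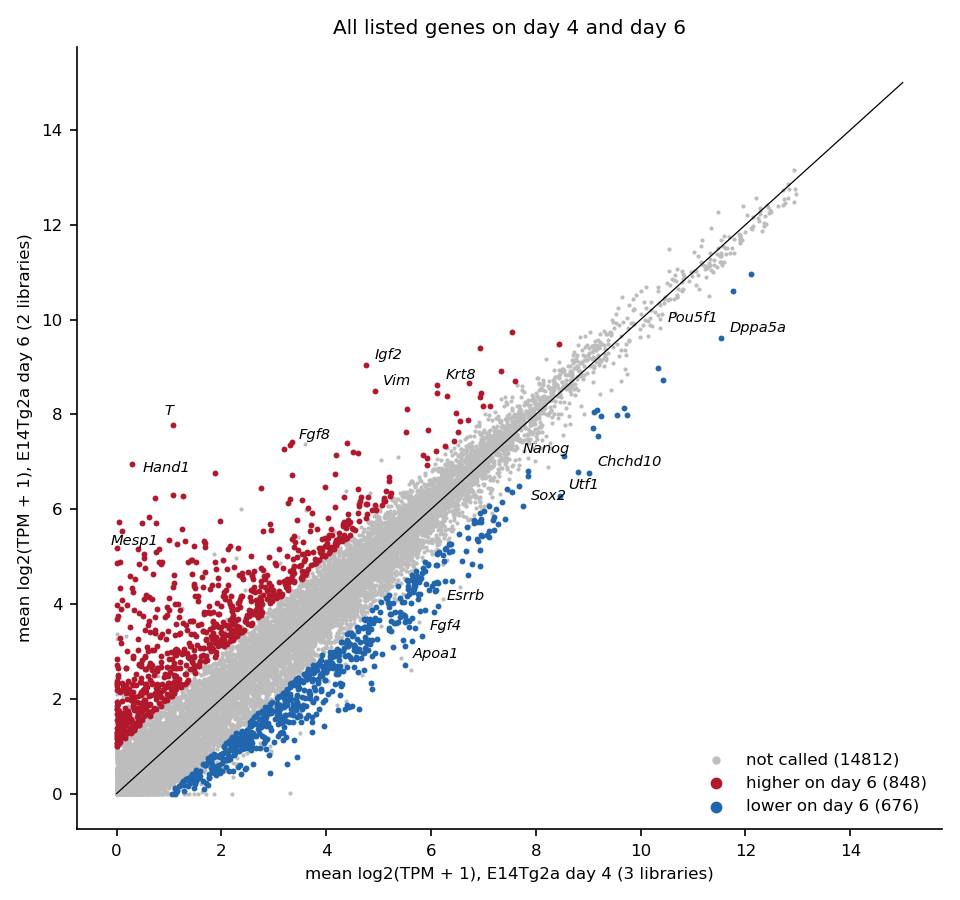
Mean log2(TPM + 1) of each of the 16336 genes in the 3 day 4 libraries (x axis) and the 2 day 6 libraries (y axis) of E14Tg2a, with the line of equal values. The 848 genes called higher (red) reach farther from the line than the 676 called lower (blue), and many of them start near 0 on day 4.

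The largest rise among genes with at least 5 TPM belonged to *T* (Brachyury, the T-box factor of the streak and notochord), a gene on the plus strand of chromosome 17 (mm10, 8434423 to 8442496). Its level was 0.543, 3.82 and 0.259 TPM in day 4 replicates 1, 2 and 3, and 211 and 224 TPM in day 6 replicates 2 and 3. The groups lay far apart, although day 4 replicate 2 already stood above the other day 4 libraries. On the log2 scale *T* rose by 6.70 ± 0.90 (SE; limma, adjusted p = 1.3e-05). *Hand1*, a bHLH factor of lateral plate and extra-embryonic mesoderm (minus strand of chromosome 11, 57828705 to 57832818), went from 0.402, 0.227 and 0.0647 TPM to 187 and 81.6 TPM and rose by 6.67 ± 0.57 (limma, adjusted p = 6.9e-08). Both day 6 libraries were far above day 4, with replicate 2 the higher. The other genes among the 15 largest rises were *Mesp1*, *Mixl1*, *Aplnr*, *Pmp22*, *Evx1*, *Sp5*, *Msgn1*, *Msx1*, *Cdx2*, *Sprr2a2*, *Foxf1*, *Cdh11* and *Rspo3*. *Aplnr*, the apelin receptor of migrating mesoderm, was alike in both day 6 libraries, with 0.0761, 0.0540 and 0.0862 TPM on day 4 and 44.4 and 47.1 TPM on day 6 (log2 fold change 5.45 ± 0.38, limma adjusted p = 2.6e-09). *Rspo3*, a secreted amplifier of WNT signalling, rose by 4.53 ± 0.47 from a day 4 mean of 0.458 TPM. *Pmp22*, a membrane protein of myelin and fibroblasts, rose by 5.22 ± 0.45. *Sprr2a2* belongs to a family of near-identical cornified envelope genes, so its reads may be split uncertainly among copies.

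Genes of the primitive streak and early mesoderm rose together: 16 of 19 listed members passed the test upwards and 0 downwards, where 5.19% of all genes rose. The list's median log2 fold change was 3.54, beside 0.06 for all genes. Each of the 16 risers had both day 6 libraries above all 3 day 4 libraries. *Mixl1*, a homeobox factor of the streak, was at 0.935, 0.648 and 0.431 TPM on day 4 and 78.8 and 69.6 TPM on day 6. *Mesp1*, which marks the first cardiac and cranial mesoderm, was at 0, 0.0540 and 0.0539 TPM on day 4 and 52.9 and 51.00 TPM on day 6. The groups of both genes were separate by a wide margin and the day 6 replicates were alike. *Eomes*, the T-box partner of *T* in the streak, was already present on day 4 at 12.3, 9.17 and 6.67 TPM and reached 96.5 and 112 TPM, a rise of 3.37 ± 0.61. *Fgf8*, the growth factor that streak cells need to move away, went from 6.63, 15.6 and 6.68 TPM to 148 and 177 TPM. *Evx1*, *Sp5*, *Lhx1* and *Wnt3* rose by 5.21, 5.21, 3.79 and 4.07.

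The 3 members that did not pass include *Nodal* itself, the TGF-beta family ligand of the streak, at 26.3, 31.5 and 19.2 TPM on day 4 and 29.96 and 32.4 TPM on day 6. Its values overlapped between the days (log2 fold change 0.30, 95% interval -0.30 to 0.89). Its antagonist *Lefty2* was at 55.1, 41.4 and 35.3 TPM and then 38.6 and 39.04 TPM, again overlapping. Both were thus well above 10 TPM on day 4 already. Leaving out any 1 of the 5 libraries left 15 or 16 streak genes called.

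**Figure D2:**
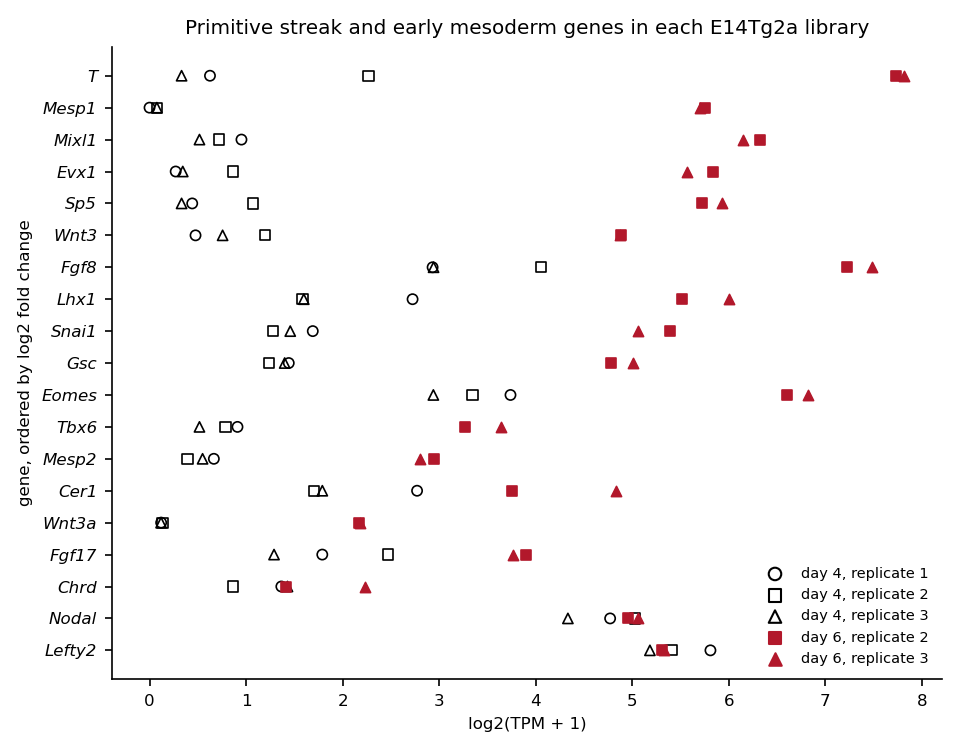
Level of the 19 listed primitive streak and early mesoderm genes in each E14Tg2a library, as log2(TPM + 1) on the x axis, with day 4 as open symbols, day 6 as filled red symbols and the shape giving the replicate. For 16 genes the day 6 symbols lie to the right of all day 4 symbols, whereas *Nodal*, *Lefty2* and *Chrd* overlap.

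The 250 bases before the annotated start are shown for 3 of the 15 genes with the largest rises, *T*, *Sp5* and *Msgn1*, because these genes moved together and WNT signalling acts through TCF/LEF factors that bind DNA containing CTTTGA. They come from RefSeq (GRCm38.p6, the same assembly as mm10), are written 5′ to 3′ on the gene's strand, and have CTTTGA or its reverse complement in capitals. *T* is on the plus strand of chromosome 17 (window chr17:8434173-8434422), *Sp5* on the plus strand of chromosome 2 (chr2:70474673-70474922) and *Msgn1* on the minus strand of chromosome 12 (chr12:11208949-11209198). The *Msgn1* window is counted from the RefSeq start and overlaps the first bases of the GENCODE gene, which spans 11208360 to 11208972.
T: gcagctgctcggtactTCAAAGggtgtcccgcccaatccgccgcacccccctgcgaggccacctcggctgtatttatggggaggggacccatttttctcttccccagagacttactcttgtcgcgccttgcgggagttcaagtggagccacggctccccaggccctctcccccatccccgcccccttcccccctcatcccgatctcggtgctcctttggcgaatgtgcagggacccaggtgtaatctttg
Sp5: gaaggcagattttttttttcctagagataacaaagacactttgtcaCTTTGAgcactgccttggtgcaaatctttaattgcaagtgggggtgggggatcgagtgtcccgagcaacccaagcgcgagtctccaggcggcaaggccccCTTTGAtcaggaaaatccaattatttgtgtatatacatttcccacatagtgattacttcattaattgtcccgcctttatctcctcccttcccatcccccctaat
Msgn1: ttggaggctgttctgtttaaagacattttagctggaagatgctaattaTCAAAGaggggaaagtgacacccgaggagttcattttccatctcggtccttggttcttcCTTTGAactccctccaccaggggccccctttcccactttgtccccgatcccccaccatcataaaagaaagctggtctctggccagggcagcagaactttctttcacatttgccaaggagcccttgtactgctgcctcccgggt
The *T* window held 1 match and the windows of *Sp5* and *Msgn1* held 2 each. The genes were shown after their matches were known. CTTTGA on either strand was in 10.7% of the 14654 windows of listed genes (11453 genes matched by symbol), in 3 of 15 windows of the streak list and in 11 of 42 windows of the switched-on genes described next. It was in 10.2% of the windows of all rising genes and 11.6% of those of all falling genes. In all, 9 letter strings were searched on both strands. The longer TCF/LEF form CTTTGAT, which overlaps CTTTGA, was in 2 of the 15 streak windows (2.28% of all windows). The T-box strings TCACACC and TCACACCT, which overlap each other, were in none of the 15 (2.91% and 0.744% of all). TATAAA was in 2 (6.52%), the GATA string AGATAA in 1 (6.01%), the E-box CACCTG in 6 (16.2%), CCAAT in 7 (35.5%) and the GC-box GGGCGG in 6 (56.0%). In the 42 switched-on windows CTTTGAT was in 2, TCACACC and TCACACCT in 1 each, TATAAA and AGATAA in 6 each, CACCTG in 3, CCAAT in 17 and GGGCGG in 19. Among rising and falling genes, CACCTG was in 13.3% and 27.7% of windows, CCAAT in 31.8% and 36.0%, and GGGCGG in 57.1% and 48.9%. The same shares were 2.69% and 1.66% for CTTTGAT, 2.29% and 3.46% for TCACACC and 0.538% and 0.753% for TCACACCT. For TATAAA they were 8.48% and 7.68%, and for AGATAA 5.92% and 7.23%. These matches describe letters in short windows and show no binding.

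By a rule on levels alone, 53 genes (0.324% of all) were switched on, with under 1 TPM in each day 4 library and at least 5 TPM in both day 6 libraries. No gene was switched off by the reverse rule, although 98 of the falling genes were under 1 TPM in both day 6 libraries, since they started from less than 5 TPM in at least 1 day 4 library. Of the genes with at least 5 TPM in each day 4 library, the one that came nearest to being off still had 1.26 TPM in its higher day 6 library. The 53 had a median day 6 mean of 15.1 TPM. Just inside the limit, 9 of them had a lower day 6 value between 5 and 6 TPM, and just outside it 11 genes lay between 4 and 5 TPM. Counted without a test, 5 belonged to the streak list, 3 to the lateral plate list, 4 to the *Hox* and *Cdx* list and 2 to the matrix list. The 10 with the highest day 6 means were *Hand1*, *Mixl1*, *Cdx2*, *Evx1*, *Mesp1*, *Aplnr*, *Msx2*, *Msgn1*, *Cdh11* and *Rspo3*. *Msgn1*, the bHLH factor of presomitic mesoderm, was listed at 0 in all 3 day 4 libraries and at 37.6 and 32.97 TPM on day 6. *Cdx2*, a caudal homeobox factor of the posterior embryo, was at 0.793, 0.659 and 0.604 TPM and then 73.1 and 35.6 TPM, with day 6 replicate 2 above replicate 3 as for *Hand1*. *Msx2*, a homeobox target of BMP signals, was at 0.869, 0.551 and 0.851 TPM and then 46.99 and 25.4 TPM. When day 6 replicate 3 was left out, 92 genes met the rule.

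Most WNT ligands on the list rose. Of 11 listed ligands, 9 rose and 0 fell, with a median of 2.25. *Wnt3*, the ligand that the embryo needs to form a streak, was at 0.391, 1.30 and 0.690 TPM on day 4 and 28.5 and 28.3 TPM on day 6. *Wnt3a*, the ligand of the later streak and tail bud, was lower throughout, at 0.0869, 0.0973 and 0.0862 TPM and then 3.50 and 3.54 TPM. No library of one day reached the range of the other for either ligand. *Wnt5a* and *Wnt5b*, ligands mostly linked to cell movement, rose by 4.21 ± 0.63 and 3.26 ± 0.59. *Wnt8a*, *Wnt6*, *Wnt2b* and *Wnt4* rose by 2.91, 3.62, 2.25 and 1.87. Genes that report or restrain WNT signalling moved in the same direction in 6 of 11 cases. *Axin2*, a direct target and feedback inhibitor, went from 7.94, 4.66 and 5.58 TPM to 49.9 and 41.9 TPM, with separate groups. *Frzb*, a secreted WNT antagonist, rose by 4.03 ± 0.47, *Nkd1* by 2.63, the antagonist *Dkk1* by 2.18 and the nuclear effector *Lef1* by 1.27. The count was not fully stable, and without day 6 replicate 2 it was 4.

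The BMP list held 13 rising and 0 falling genes of 21, with a median of 1.85. *Bmp4*, which induces mesoderm in the embryo, was at 6.08, 13.1 and 3.65 TPM on day 4 and 61.6 and 34.9 TPM on day 6, and *Bmp2* was at 2.59, 0.422 and 1.41 TPM and 10.3 and 8.61 TPM. The groups did not overlap for either ligand, although day 4 replicate 2 held the most *Bmp4* of that day and the least *Bmp2*. The targets *Id1* and *Id3*, inhibitors of bHLH factors, rose by 1.73 ± 0.23 and 2.70 ± 0.32, and *Msx1* rose by 5.01 ± 0.54. Some antagonists rose as well, whereas *Chrd* was not called. *Fst* (follistatin, which binds activin and BMPs) went from 5.24, 16.96 and 5.78 TPM to 137 and 169 TPM, and the BMP modulator *Bmper* rose by 3.37 ± 0.54.

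Other signals were mixed. In the FGF-ERK list 5 genes rose and 1 fell of 22: *Fgf8*, *Fgf3*, *Fgf10*, *Fgf17* and the feedback inhibitor *Spred1* rose, and *Fgf4*, the FGF of pluripotent cells, fell from 65.4, 54.3 and 47.98 TPM to 8.51 and 9.55 TPM (by 2.49 ± 0.29; limma, adjusted p = 1.9e-06). *Fgf3* rose by 4.02 ± 0.69 and *Fgf10* by 2.67 ± 0.51. The ERK feedback genes *Dusp6* and *Spry4* changed by 0.79 and -0.22 and were not called. The Nodal list held 1 rise (*Cer1*, a secreted antagonist, 2.21) and 2 falls (*Gdf3*, -1.40, and *Lefty1*, -1.34) of 17. The Nodal co-receptor *Tdgf1* stayed at a high level, 253, 257 and 218 TPM on day 4 and 218 and 263 TPM on day 6, with overlapping groups. In the Notch list 5 of 15 rose and 0 fell, led by the somite genes *Dll3* (2.99) and *Lfng* (1.96), with *Nrarp*, *Jag1* and *Hes1*. *Tgfb1* and *Tgfb2* were the 2 of 10 TGF-beta genes that rose, by 3.49 ± 0.35 and 3.95 ± 0.43. In the retinoic acid list 4 genes rose and 1 fell of 16. *Aldh1a2*, the enzyme that makes retinoic acid in mesoderm, went from 1.11, 0.346 and 0.593 TPM to 11.9 and 12.4 TPM. *Cyp26a1*, which breaks it down, was at 72.9, 11.7 and 37.6 TPM and then 116 and 148 TPM, above all day 4 libraries but not past the test (adjusted p = 0.055 by limma). *Stra8*, a retinoic acid target of germ cells, fell by 2.10 ± 0.45.

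Genes of the mesoderm's later divisions began to appear, to different degrees. In the lateral plate list 6 of 12 rose and 1 fell. *Foxf1*, the forkhead factor of splanchnic mesoderm, was at 0.120, 0 and 0.0323 TPM on day 4 and 43.97 and 18.3 TPM on day 6. *Hand2*, the partner of *Hand1*, was listed at 0 in all day 4 libraries and at 17.4 and 8.00 TPM on day 6. As for *Hand1*, replicate 2 stood above replicate 3 and both stood above day 4. Summed over the list, day 6 replicates 2 and 3 held 327 and 153 TPM, and without replicate 2 the count of rising genes was 3. *Wt1*, a zinc finger factor of mesothelium and kidney, was the exception and fell by 1.66 ± 0.36. In the paraxial list 5 of 10 rose and 1 fell: *Msgn1*, *Dll3*, *Lfng*, *Foxc1* and *Foxc2* rose, whereas *Tcf15* (paraxis), which pluripotent cells also express, fell from 71.96, 73.9 and 53.4 TPM to 13.4 and 13.3 TPM. *Meox1*, a marker of formed somites, was at 0.0869, 0.0540 and 0.0754 TPM and then 0.491 and 0.539 TPM.

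Of 15 cardiac transcription factors 6 rose, and *Hand1* and *Hand2* are among them. *Isl1*, of second heart field progenitors, was at 0.750, 0.303 and 0.0216 TPM and then 10.8 and 6.86 TPM, and *Tbx20* rose by 2.27 ± 0.46. *Nkx2-5* and *Tbx5*, factors of committed heart cells, stayed low, with day 6 values of 2.15 and 0.399 TPM and 0.360 and 0.259 TPM. *Gata4* and *Gata6* were at 46.6 and 37.5 TPM and 18.99 and 20.2 TPM on day 6, above all day 4 libraries, but did not pass. On day 4 *Gata4* was at 22.4, 3.60 and 11.3 TPM and *Gata6* at 14.9, 1.96 and 7.91 TPM. Both are also genes of extra-embryonic endoderm. Heart muscle genes rose in 5 of 19 cases and fell in 0. *Actc1*, cardiac actin, went from 1.76, 1.77 and 2.91 TPM to 20.9 and 24.5 TPM, and *Tpm1*, a tropomyosin that many cells make, from 177, 169 and 211 TPM to 889 and 814 TPM. *Tnnt2* and *Myh6*, contractile genes of differentiated cardiomyocytes, were at 2.93 and 1.04 TPM and 0.371 and 1.83 TPM on day 6 and were not called.

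A few endothelial and blood genes rose. In the endothelial list 4 of 17 rose and 1 fell. *Kdr*, the VEGF receptor of haemangioblasts, was at 0.174, 0.389 and 0.517 TPM and then 33.6 and 22.9 TPM, and *Etv2*, the factor that specifies endothelium, rose by 2.16 ± 0.59. *Flt1* and *Fli1* rose by 1.72 and 1.35. *Cdh5*, the cadherin of formed endothelium, was at 2.36 and 0.982 TPM on day 6 and was not called. *Pecam1*, which pluripotent cells also make, fell by 1.80 ± 0.40. The endothelial count of rises was 2 without day 6 replicate 2 and 2 without day 4 replicate 1. In the blood list 4 of 17 rose, namely *Lmo2* (2.96), *Gata2* (2.11), *Tal1* (1.92) and *Runx1* (1.13). Embryonic globin *Hbb-bh1* was at 0, 0 and 0.431 TPM on day 4 and 14.5 and 5.38 TPM on day 6 and did not pass the test (limma, adjusted p = 0.083). All these blood genes were higher in day 6 replicate 2 than in replicate 3, and without replicate 2 the blood count was 1.

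The mesenchymal list rose and the epithelial list split. Of 17 mesenchymal genes 11 rose and 0 fell, with a median of 2.18. *Cdh2*, N-cadherin, went from 4.74, 6.41 and 6.28 TPM to 87.3 and 85.2 TPM, and *Vim*, the intermediate filament of mesenchyme, from 20.9, 35.8 and 34.2 TPM to 429 and 297 TPM. Neither gene had overlapping groups. *Snai1*, the repressor of E-cadherin, rose by 3.75 ± 0.44, *Cdh11* by 4.75 ± 0.60 and *Twist1* by 2.54 ± 0.43. *Snai2* was at 3.77 and 0.971 TPM on day 6 and was not called. Of 17 epithelial genes 5 fell and 3 rose. *Cdh1*, E-cadherin, was at 165, 201 and 197 TPM on day 4 and 72.8 and 91.5 TPM on day 6 and fell by 1.18 ± 0.28 (limma, adjusted p = 0.0034). *Epcam* fell by 1.02 and the tight junction gene *Cldn4* by 1.77. The keratin *Krt8* moved the other way, from 111, 35.7 and 80.8 TPM to 459.5 and 334 TPM, and *Krt19* and desmoplakin (*Dsp*) rose by 1.86 and 1.92. The count of epithelial falls ran from 0 without day 6 replicate 2 to 8 without day 4 replicate 2, and was 2 without day 4 replicate 1 and 3 without day 4 replicate 3.

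Matrix and cytoskeleton genes moved in the same direction as the mesenchymal ones. In the collagen and interstitial matrix list 10 of 26 rose and 0 fell. *Fn1*, fibronectin, went from 106, 124 and 88.7 TPM to 457 and 353 TPM, and *Col1a1*, the main chain of type I collagen, from 0.348, 0.432 and 0.528 TPM to 24.4 and 10.5 TPM. *Postn* and *Col3a1* were still at 1.19 and 0.572 TPM and 4.67 and 2.52 TPM on day 6. The matrix count was 6 when day 6 replicate 2 was left out. In the list of smooth muscle genes and targets of the serum response factor 7 of 16 rose, among them *Acta2* (3.88, 1.06 and 2.28 TPM and then 46.7 and 27.3 TPM) and *Tagln* (13.1, 17.2 and 34.98 TPM and then 164 and 172 TPM). This count depended on single libraries: it was 4 without day 4 replicate 2, 2 without day 6 replicate 2 and 3 without day 6 replicate 3. Integrin and focal adhesion genes rose in 7 of 34 cases and fell in 1. The adaptors *Zyx* and *Tgfb1i1* rose by 1.47 and 2.88, and the fibronectin receptor chain *Itga5* and vinculin (*Vcl*) changed by 0.62 and 0.86, under the fold limit. These are genes of adherent cells, and the cultures became adherent in this interval, so their part in the change cannot be told apart from that of time.

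*Hox* and *Cdx* genes, which give cells their position along the body axis, rose in 24 of 43 listed members (*Meis* and *Pbx* cofactors included) and fell in 0. The median was 1.29, and 41 members had both day 6 libraries above day 4, where 32.9% of all genes did. *Hoxb1* was at 0, 0.162 and 0 TPM on day 4 and 21.6 and 17.3 TPM on day 6, *Hoxb2* at 0.0435, 0.0973 and 0.0431 TPM and 17.3 and 11.04 TPM, and *Hoxd9* at 0.261, 0.0648 and 0.248 TPM and 16.3 and 6.65 TPM. Anterior members (*Hoxb1*, *Hoxb2*) and a more posterior one (*Hoxd9*) thus passed 5 TPM in the same interval. *Hoxb6* was listed at 0 on day 4 and at 10.9 and 3.33 TPM on day 6. The levels were mostly higher in day 6 replicate 2, with list sums of 402 and 265 TPM, and 7 members stayed under 1 TPM in all 5 libraries. Without replicate 2 only 7 members were called, so this count rests on that library.

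**Figure D3:**
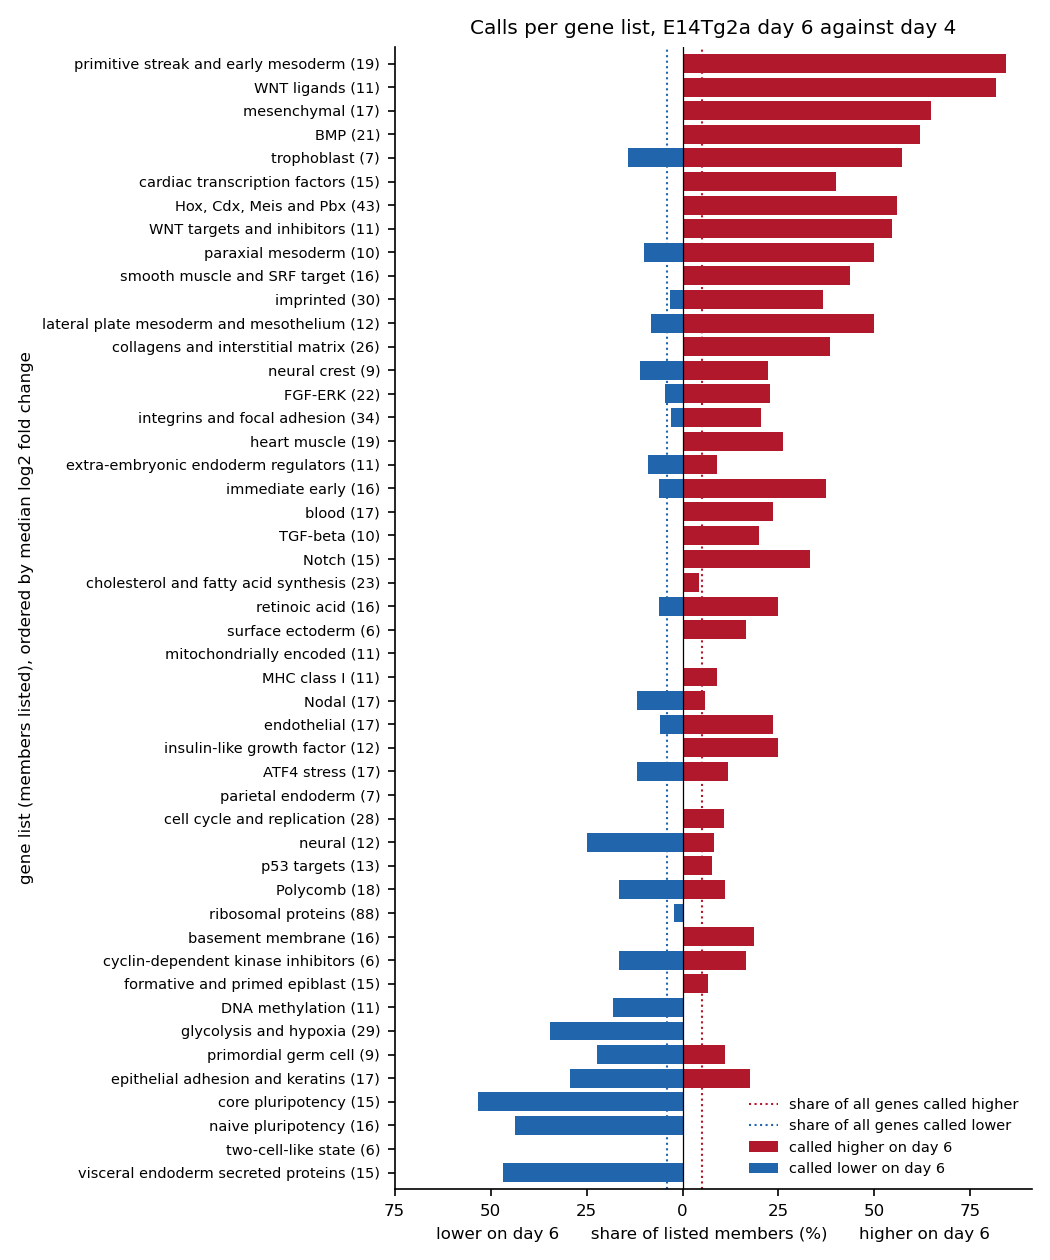
Share of listed members called higher (red, to the right) or lower (blue, to the left) on day 6, for the 48 gene lists with at least 6 listed members, ordered by median log2 fold change, with dotted lines at the shares of all genes (5.19% and 4.14%). Streak genes, WNT ligands, mesenchymal and BMP genes stand at one end, and both pluripotency lists and the visceral endoderm secreted proteins at the other.

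Genes of pluripotency fell, whereas *Nanog* and *Pou5f1* did not pass the test. In the naive pluripotency list 7 of 16 fell and 0 rose (median -1.01), and in the core list 8 of 15 fell and 0 rose (median -1.01). The background of falling genes was 4.14%. Both day 6 libraries lay below all day 4 libraries for 12 naive and 10 core genes, and for 23.2% of all genes. *Esrrb*, a nuclear receptor of the naive network, went from 84.2, 77.4 and 51.7 TPM to 13.7 and 15.2 TPM (fell by 2.19 ± 0.31; limma, adjusted p = 2.4e-05). *Nr0b1*, *Tcl1* and *Klf2* fell by 2.22, 1.73 and 1.69. *Sox2* went from 243, 239 and 171 TPM to 58.1 and 74.4 TPM and fell by 1.69 ± 0.37, and *Utf1*, *Dppa4* and *Dppa5a*, genes tied to undifferentiated cells, fell by 2.17, 1.94 and 1.93. Even so *Dppa5a* stood at 799 and 755 TPM on day 6.

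*Nanog* was at 183, 207 and 189 TPM on day 4 and 122 and 140.5 TPM on day 6. Both day 6 values were below all day 4 values, but the change of -0.55 ± 0.30 did not pass (95% interval -1.17 to 0.06; limma, adjusted p = 0.18). *Pou5f1*, which encodes OCT4, was at 1094, 1522 and 1369 TPM and then 848 and 959 TPM, again lower without passing (-0.54 ± 0.35, adjusted p = 0.28 by limma). *Klf4* had means of 71.5, 4.41 and 3.62 TPM on days 0, 4 and 6, and *Klf5* of 87.8, 15.7 and 13.5 TPM, so that both were low before this step. *Sall4* had a log2 fold change of 0.64, under the limit of 1. In fits that left out 1 library, 7 to 9 naive and 7 to 8 core genes fell. *Tbx3*, a T-box factor of the naive list that mesoderm also uses, had the highest value of that list, with 12.4, 4.56 and 4.37 TPM on day 4 and 24.4 and 17.3 TPM on day 6 (log2 fold change 1.55 ± 0.61, limma adjusted p = 0.063). It was named after its values were seen. Of the naive list, 1 gene was called higher without day 4 replicate 1, with the replicate number as a block, or with only E14Tg2a libraries in the fit.

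The formative and primed epiblast genes were mostly not called: 1 rose (*Lef1*) and 0 fell of 15. The calls varied with the fit: without either day 6 library in turn 0 rose, with the replicate number as a block 2 rose and 2 fell, and with only the 5 libraries compared 2 fell. *Otx2* was at 158, 130.5 and 141 TPM on day 4 and 45.9 and 76.3 TPM on day 6 (adjusted p = 0.06 by limma). *Fgf5*, a growth factor of the epiblast, was at 29.9, 42.6 and 37.99 TPM and then 29.2 and 54.8 TPM, with overlapping groups. *Dnmt3b*, the de novo DNA methyltransferase of this stage, was at 298, 387 and 424 TPM and then 156 and 225 TPM, lower in both day 6 libraries but with adjusted p = 0.12 by limma.

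Among the 15 largest falls were, besides *Fgf4* and *Nr0b1*, those of the apolipoproteins *Apoa1* and *Apoc2*, the uptake receptor *Cubn*, the sterol acyltransferase *Soat2*, the slit diaphragm protein *Nphs1*, the ferritin receptor *Timd2*, the pepsinogen *Pga5*, the cytokine *Tnfsf12*, the bHLH repressor *Bhlhe41*, the troponin *Tnnt1*, *Mymx* and *Chchd10*. *Chchd10*, a mitochondrial protein, went from 549, 555 and 453 TPM to 100.4 and 117 TPM and fell by 2.24 ± 0.27 (limma, adjusted p = 3.1e-06). *Mymx*, which encodes a small fusion protein of muscle cells, went from 56.5, 47.4 and 44.2 TPM to 7.78 and 8.98 TPM and fell by 2.42 ± 0.41.

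Some visceral endoderm genes were called lower on day 6, and their number depended on single libraries. Of 15 secreted proteins 7 fell and 0 rose (median -1.78), but only 3 had both day 6 libraries below all day 4 libraries, where 23.2% of all genes did. *Apoa1*, the apolipoprotein of high density lipoprotein, was at 125, 17.3 and 39.4 TPM in day 4 replicates 1, 2 and 3 and 1.60 and 15.7 TPM in day 6 replicates 2 and 3. It fell by 2.78 ± 0.81 (limma, adjusted p = 0.014), yet day 4 replicate 2 and day 6 replicate 3 were close. *Afp*, alpha-fetoprotein, was at 255, 20.2 and 76.7 TPM on day 4 and 4.65 and 51.4 TPM on day 6, with overlapping groups, and *Ttr*, transthyretin, at 125, 20.6 and 58.98 TPM and 3.86 and 30.4 TPM. Neither passed. *Cubn*, the uptake receptor cubilin, fell by 2.58 ± 0.95, the only one of 4 uptake receptors called, and was not called in 4 of the 5 fits that left out 1 library, while without day 4 replicate 2 all 4 were called lower. Summed over the secreted proteins, the day 4 libraries held 3212, 1079 and 1669 TPM and the day 6 libraries 397 and 764 TPM. Without day 4 replicate 1 the count of falling secreted proteins was 1, without day 4 replicate 2 it was 12, and without day 6 replicate 2 it was 1. With only E14Tg2a libraries in the fit it was 2, and with only the 5 libraries compared it was 0.

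The regulators of extra-embryonic endoderm were mostly not called. *Hnf4a*, a regulator of apolipoprotein genes, fell by 1.45 ± 0.54, and *Pdgfra*, also a receptor of mesoderm, rose by 2.01 ± 0.74. Neither call was stable: that of *Hnf4a* was kept only when day 4 replicate 2 was the library left out, and that of *Pdgfra* only when it was day 4 replicate 1. The other 9 of 11 were not called, but 3 members were called higher without day 4 replicate 1 and 2 lower without day 4 replicate 2. *Sox17* was at 23.3, 3.66 and 14.6 TPM on day 4 and 25.2 and 40.9 TPM on day 6. Of 7 parietal endoderm genes limma called 0 in either direction, and 1 had an unadjusted p under 0.05. Type IV collagen *Col4a1*, which this cell type makes in bulk, was at 265, 42.04 and 168 TPM and then 59.4 and 115 TPM.

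**Figure D4:**
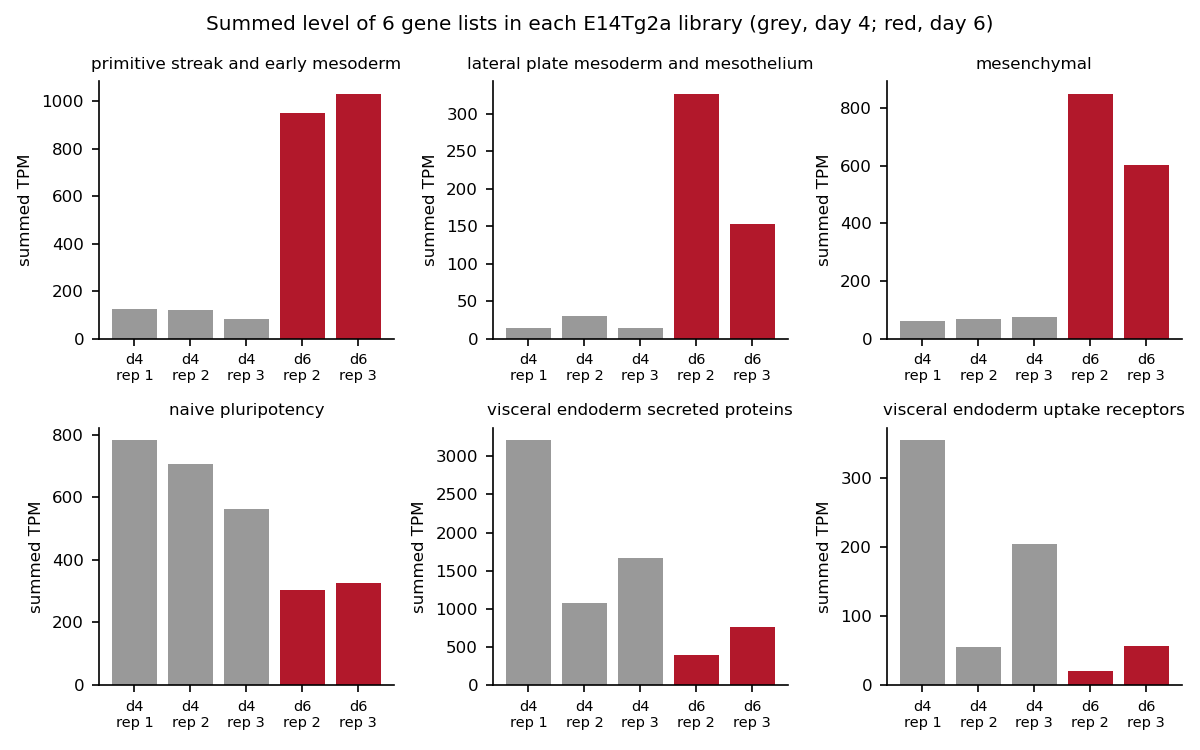
Summed TPM of 6 gene lists in each of the 5 E14Tg2a libraries, day 4 in grey and day 6 in red, on linear axes that start at 0. The 2 day 6 libraries stand above day 4 for the streak, lateral plate and mesenchymal lists and below it for naive pluripotency, while the visceral endoderm sums are highest in day 4 replicate 1 and lowest in day 6 replicate 2.

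Markers of other cell types that EBs can hold were checked over all list members found among the 16336 genes. These were 12 of 20 neural, 9 of 11 neural crest, 6 of 8 surface ectoderm and 7 of 12 trophoblast genes. The other markers could not be checked. The neural list had 1 rising and 3 falling genes of 12, with sums of 71.2, 101 and 101 TPM on day 4 and 126 and 170.5 TPM on day 6. *Pax6* fell by 1.53 ± 0.40, and *Fabp7*, a fatty acid binding protein of neural progenitors, rose by 2.21 ± 0.42. *Sox1*, the earliest neural marker, was at 0.261, 4.68 and 2.31 TPM and then 1.38 and 1.56 TPM and was not called. In the neural crest list *Ets1* and *Sox9* rose and *Foxd3*, which pluripotent cells also express, fell, of 9 listed, and *Sox10*, the defining gene, was at 0.720 and 0.841 TPM on day 6. Surface ectoderm genes rose in 1 of 6 cases (*Gata3*), with *Krt14* at 0.448 and 0.432 TPM on day 6. The trophoblast list had 4 rises and 1 fall of 7: *Cdx2*, *Eomes*, *Gata3* and *Plac1* rose, of which *Cdx2* and *Eomes* also belong to the streak or posterior lists, and *Ascl2* fell. When day 6 replicate 2 was left out, the neural falls numbered 1, the crest rises 1 and the trophoblast rises 2. The part of such cells in the results above was not tested.

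Single libraries decided some calls named above. Without day 6 replicate 2, the library with more lateral plate and less visceral endoderm RNA, the test was no longer passed by *Bmp4*, *Fn1*, *Tagln*, *Tbx20*, *Foxc2*, *Gata2*, *Gata3*, *Tal1*, *Runx1*, *Etv2*, *Fli1*, *Hes1*, *Lef1*, *Dkk1*, *Hoxb6*, *Sox9*, *Krt19*, *Plac1* and *Pdgfra* among the rises, nor by *Cdh1*, *Epcam*, *Cldn4*, *Pax6*, *Lefty1*, *Foxd3*, *Ascl2*, *Apoa1*, *Apoc2*, *Apom*, *Cubn*, *Hnf4a*, *Pga5*, *Soat2* and *Timd2* among the falls. Without day 4 replicate 1, *Apoa1*, *Apoc2*, *Apom*, *Cubn*, *Hnf4a*, *Pga5*, *Timd2*, *Ascl2*, *Epcam*, *Foxd3*, *Etv2*, *Fli1*, *Lef1*, *Plac1* and *Tal1* did not pass. Without day 4 replicate 2 the calls of *Foxd3*, *Krt19*, *Pdgfra*, *Plac1* and *Runx1* were lost, and without day 4 replicate 3 those of *Apom*, *Ascl2*, *Cubn*, *Foxd3*, *Hnf4a*, *Krt19*, *Pdgfra* and *Runx1*. When day 6 replicate 3 was left out, *Ascl2*, *Cer1*, *Cubn*, *Hnf4a*, *Krt19*, *Lef1*, *Myl7*, *Pdgfra* and *Runx1* did not pass. *T*, *Hand1*, *Mixl1*, *Eomes*, *Cdh2*, *Vim*, *Esrrb*, *Sox2* and *Fgf4* were called in each of these fits.

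The listed streak genes other than *Lefty2* had higher means on day 6 than on days 4 and 8. Day 6 was also compared with the mean of days 4 and 8. In this contrast 244 genes stood higher (1.49% of all) and 195 lower (1.19%), or 2.69% in either direction. A gene still rising on day 8 can also pass, as can one that was level from day 4 to day 6 and fell by day 8. Of the streak list 18 of 19 stood higher, where 16 passed the step itself. This contrast shares the day 6 and day 4 libraries with the step itself. *T* had means of 0.648, 1.54, 218 and 16.8 TPM on days 0, 4, 6 and 8, and on day 6 it stood 5.71 ± 0.80 above the mean of its neighbours on the log2 scale (limma, adjusted p = 0.00012). *Mixl1*, *Msgn1*, *Mesp1*, *Sp5*, *Lhx1*, *Eomes* and *Fst* made up the rest of the 8 largest, with values from 3.56 to 4.79. The day 8 libraries spread widely for *T*, with a mean of 16.8 ± 24.3 TPM (SD, n = 3). WNT ligands stood higher in 7 of 11 cases and Notch genes in 5 of 15. By contrast some lateral plate, matrix and blood genes had still higher means on day 8, with *Hand1* at 582 TPM, *Col1a1* at 292 TPM and *Hbb-bh1* at 1803 TPM. The count of genes higher on day 6 was 105 without day 6 replicate 2 and 137 without day 6 replicate 3.

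The 8 genes that stood farthest below on day 6 differed in course. *Apoc2*, *Apoa1*, *Apom* and *Rbp4*, secreted proteins of visceral endoderm and liver, had lower means on day 6 than on days 4 and 8, with *Apoc2* at means of 22.4, 2.39 and 29.4 TPM on days 4, 6 and 8 (contrast -2.99 ± 0.63; limma, adjusted p = 0.005). *Pyy*, *Hba-a1*, *Hbb-bs* and *Postn* were low on both earlier days and came up on day 8, to 45.1, 183, 51.02 and 164 TPM, so the contrast counts them through day 8. Globin genes have near-identical copies, between which reads may be split. The number of genes lower on day 6 was 12 without day 6 replicate 2, 54 without day 6 replicate 3 and 110 without day 4 replicate 1.

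The neighbouring steps share libraries with this one and are given as values. The streak list had a median change of 0.19 from day 0 to day 4, 3.54 from day 4 to day 6 and -2.84 from day 6 to day 8. For the mesenchymal list the values were 0.19, 2.18 and 1.24, and for the matrix list -0.04, 0.80 and 1.72. Naive pluripotency genes had medians of -1.93, -1.01 and -0.89, and formative genes 2.31, -0.30 and -1.44. *Nanog* changed by -0.83, -0.55 and -2.28 over the 3 steps and *Pou5f1* by -0.41, -0.54 and -2.88.

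**Figure D5:**
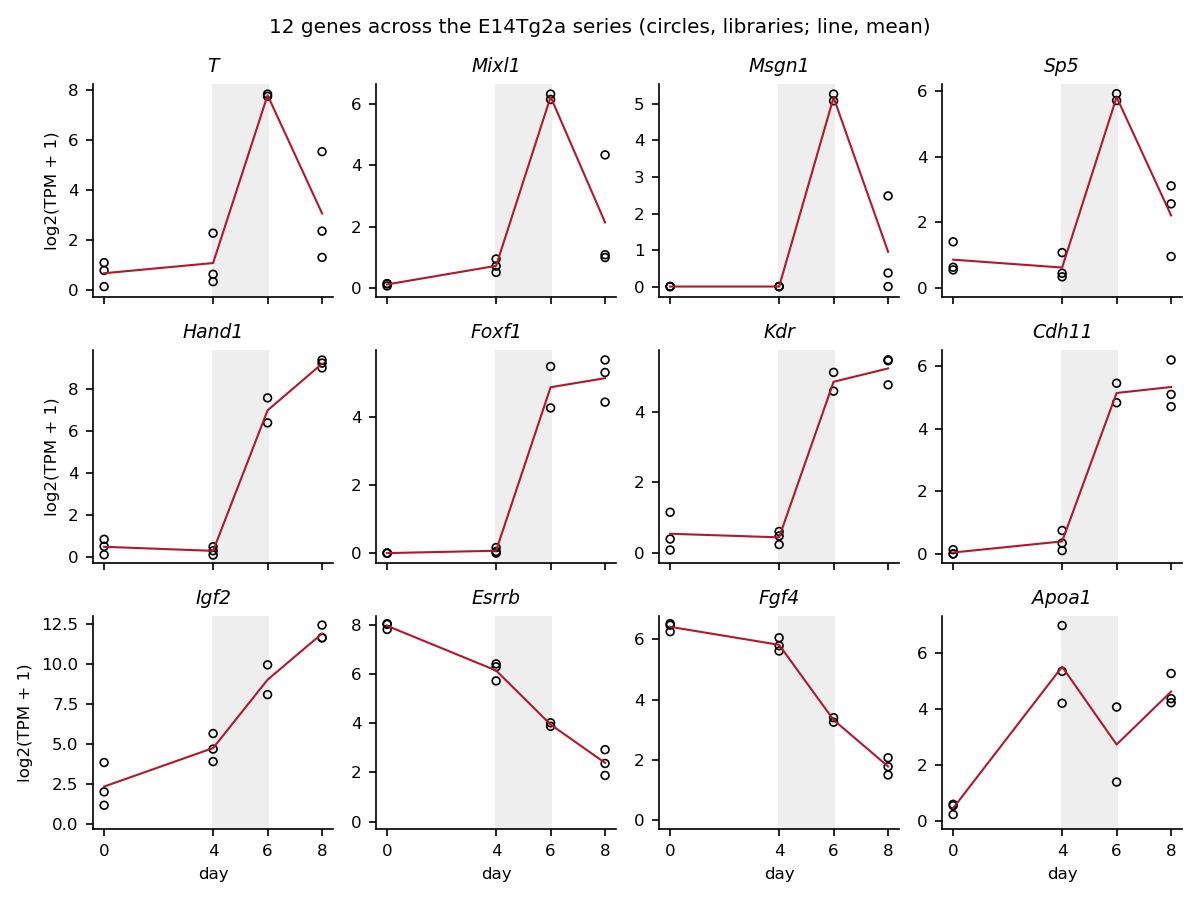
log2(TPM + 1) of 12 genes in each E14Tg2a library (circles) on days 0, 4, 6 and 8, with a red line through the means and the step from day 4 to day 6 shaded. The genes of the top row (*T*, *Mixl1* and *Sp5* of the streak list and *Msgn1* of the paraxial list) peak on day 6. Those of the middle row stay up on day 8 or go on rising, and the bottom row shows *Igf2*, 2 pluripotency genes and *Apoa1*.

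The step was then set against the same step in the clones ΔK9.1 and ΔK9.2 (10 libraries). The difference between the E14Tg2a step and the mean of the clone steps passed the same limits for 14 genes (0.0857% of all), 9 more positive in E14Tg2a (0.0551%) and 5 more negative (0.0306%), whereas 1113 genes had an unadjusted p under 0.05. None of the 19 streak genes was among them. *T* rose by 6.70 in E14Tg2a and the steps of ΔK9.1 and ΔK9.2 were 5.66 and 6.84, a difference of 0.45 with a 95% interval of -1.81 to 2.72. The list's median step was 3.54 in E14Tg2a and 2.73 in the clones. For the lateral plate list these medians were 0.81 and 0.28, and *Hand1* differed by 2.75 ± 0.70 (limma, adjusted p = 0.19), which did not pass.

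The gene with the largest positive difference was *Cfc1* (plus strand of chromosome 1, 34535648 to 34544313), which encodes the Nodal co-receptor Cryptic. It went from 3.46, 2.43 and 1.20 TPM to 41.8 and 34.8 TPM in E14Tg2a, against means of 3.36 and 9.15 TPM in ΔK9.1 and 3.28 and 6.34 TPM in ΔK9.2. The difference was 2.65 ± 0.54 (limma, adjusted p = 0.045). *Lgals3*, galectin 3, changed by 1.77 in E14Tg2a and by -0.64 and -0.19 in the clones, and *Myl7*, atrial myosin light chain, by 1.17 against -0.67 and -0.87. *Slc35d3*, of a nucleotide sugar transporter family, had the largest negative difference, with -0.43 in E14Tg2a against 1.18 and 2.25. *Dnmt3bos*, a transcript antisense to *Dnmt3b*, went from 5.89, 6.12 and 8.42 TPM to 1.87 and 2.66 TPM in E14Tg2a and changed by 0.39 and 0.51 in the clones. These calls were few and depended on single E14Tg2a libraries. Of positive and negative differences, limma called 1 and 4 without day 4 replicate 2, 0 and 0 without day 4 replicate 3, 2 and 0 without day 6 replicate 2, and 15 and 6 without day 6 replicate 3. With a pseudocount of 0.1 the counts were 0 and 0, and among genes averaging 5 TPM or more they were 1 and 1.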

How the data were processed

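Poly-A RNA of E14Tg2a and 2 clones on days 0, 4, 6 and 8 was sequenced in 33 libraries. Per the labels and the study's methods, the authors aligned reads with STAR to mm10 and quantified genes with RSEM, and the deposited table holds TPM (transcript abundances corrected for length and scaled to a common library total) for 16336 genes (RSEM with the strand setting for stranded reads; versions not given in the sources used here). The study states that outliers found by principal component analysis were left out before TPM were computed, without saying whether these were samples or genes. The table also holds the authors' DESeq2 fold changes and adjusted p-values of their own comparisons, which were not used. No column belonged to a sample outside the series (0 such columns).

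TPM sum to about the same total in each library and keep no depth, so a large rise in some genes lowers the share of all others, and no counting interval can be given.

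Values were transformed to log2(TPM + 1) and fitted with limma 3.58.1 (R 4.3.3; moderated statistics with an intensity trend) over 12 groups of line and day in all 33 libraries, which share one estimate of the spread. The contrasts tested were day 6 against day 4 in E14Tg2a, this step minus the mean step of both clones, and day 6 against the mean of days 4 and 8. Calls needed a Benjamini-Hochberg adjusted p under 0.05 over all genes and an absolute log2 value over 1. The procedure was tested on simulated data. Summaries used Python 3.11.15 with pandas 2.3.3.

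Genes named were the 15 largest changes in each direction with separate groups and a mean of at least 5 TPM on the higher day, the 10 switched-on genes with the highest day 6 mean, the first 4 genes of each of 49 lists with up to 4 further called members, and the 8 largest values in each direction of the other contrasts, leaving out predicted gene models. Of the genes named by this rule, 1 is not reported here. *Chrd*, *Tbx3*, *Gm13713* and the promoters shown were named after their values were seen. Gene coordinates are from the GENCODE annotation of mm10. The members and lists were chosen with earlier results of these data known. Chosen members absent from the 16336 genes were not counted, so the shares of each list cover only members that the table holds. Alternatives changed the pseudocount to 0.1, the minimum mean TPM to 1 or 5, the scaling, the replicate block, the limits of switching and the libraries in the fit, or left out each library in turn.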

Additional observations from a re-analysis of the deposited data

Results flagged for a closer look

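The step from day 4 to day 6 differed between E14Tg2a and the mean of both clones for 14 genes by a test of the difference itself (limma over all libraries, adjusted p under 0.05 and a log2 difference over 1). With a pseudocount of 0.1 in place of 1 no gene passed (0 and 0), so each of these calls depends on that choice. More positive in E14Tg2a were *Cfc1* (log2 difference 2.65 ± 0.54 SE), *Lgals3* (2.19 ± 0.38), *Myl7* (1.95 ± 0.37), the RNA gene *Rubie* (1.80, a fitted value, since it was listed at 0 in all E14Tg2a day 4 libraries), the predicted gene *Gm13713* (1.62), *Optc* (1.61 ± 0.29), *BC023719* (1.41 ± 0.28), *Scara3* (1.25 ± 0.24) and the immediate early factor *Egr3* (1.08 ± 0.18).

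More negative in E14Tg2a were *Slc35d3* (-2.14 ± 0.37), *Dnmt3bos* (-1.70 ± 0.30), the insulin receptor substrate *Irs4* (-1.63 ± 0.33), *Pgap1*, an enzyme of GPI anchors (-1.43 ± 0.25), and *Ttbk1* (-1.13 ± 0.21). *Irs4* had mean levels of 6.11 and 2.04 TPM in E14Tg2a on days 4 and 6, against 1.91 and 2.76 TPM in ΔK9.1 and 2.77 and 4.09 TPM in ΔK9.2. *Optc*, which encodes the matrix protein opticin, had 0.0251 and 4.75 TPM in E14Tg2a, 0.0399 and 0.751 TPM in ΔK9.1 and 0.0360 and 1.18 TPM in ΔK9.2. Each clone is a single derivative, so a difference from both cannot be assigned to the deletion. The check for an outlying library by its gap to the others was applied to groups of 4 to 10 only, and none of the E14Tg2a groups has so many.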

How the results depend on the processing

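No named gene reversed its direction under any alternative. Of 205 named genes called, 192 stayed called with a pseudocount of 0.1, 198 after median ratio scaling, 184 with only E14Tg2a libraries in the fit and 139 without day 6 replicate 2, the lowest number. Leaving out each library in turn gave 566 to 871 rising and 306 to 776 falling genes. The count of steps more positive in E14Tg2a than in the clones ran from 0 to 15 and that of more negative ones from 0 to 6. Genes higher on day 6 than the mean of days 4 and 8 numbered 105 to 253 and lower ones 12 to 253, and the switching rule gave 59 to 92 genes on and 0 to 8 off.

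When means under 5 TPM were left out, 467 rose and 444 fell, 1 and 1 differed from the clones, and 145 and 112 stood higher and lower on day 6. A minimum of 1 TPM left 4 and 3 differences from the clones, and a pseudocount of 0.1 left 0 and 0. With only the libraries of each contrast in the fit, 447 genes fell, 2 steps were more negative than in the clones, and 157 and 38 genes stood higher and lower on day 6. With only E14Tg2a libraries, 100 genes stood lower on day 6. The switching counts follow their limits by construction: 23 genes were on with a limit of 0.5 TPM for off, 169 on and 25 off with 2 TPM for on, and 31 on with 10 TPM. Beyond construction (fewer genes or libraries), the cause was not tested. Depth could not be weighed, since TPM do not keep it.

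Days 4 and 6 share only replicate numbers 2 and 3, and although the study describes independent assays with the lines differentiated in parallel, it does not say which number belongs to which assay. The deviations of same-numbered libraries from their group means had a correlation of 0.220 for replicate 2 and 0.0809 for replicate 3 over 10337 genes. Day 4 replicate 1 had 0.126 with day 6 replicate 3 and -0.126 with day 6 replicate 2. Since day 6 has 2 libraries, their deviations mirror each other, and each value comes with its opposite. The values therefore cannot show whether the numbers are paired. With the replicate number as a block, 859 genes rose and 660 fell, 13 and 6 differed from the clones, and 275 and 217 stood higher and lower on day 6.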

Other observations

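Genes of other processes moved in the same interval. Imprinted genes, of which many control fetal growth, rose in 11 of 30 cases and fell in 1 (median 0.92). *Igf2*, the fetal growth factor, was at 49.97, 14.1 and 24.98 TPM on day 4 and 996 and 274 TPM on day 6, and had a mean of 4007 TPM on day 8. *Peg3*, *Phlda2* and *Dlk1* rose by 2.58, 2.58 and 3.00, whereas *H19* and *Meg3*, maternally expressed RNAs, had log2 fold changes of 0.14 and 0.22 and were not called. The insulin-like growth factor list had 3 rises of 12 (*Igf2*, *Igfbp3* and *Igfbp4*).

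Genes of glycolysis and hypoxia fell in 10 of 29 cases and rose in 0. *Pdk1*, which keeps pyruvate out of mitochondria, went from 129, 115 and 113 TPM to 36.1 and 42.2 TPM, and *Adm*, *Bnip3* and *Ankrd37*, targets of hypoxia-inducible factors, fell by 2.03, 1.43 and 1.42. *Vegfa* and *Ldha* had log2 fold changes of 0.08 and 0.39 and were not called. Without day 6 replicate 2 the count was 5. The cultures moved from suspended aggregates to plated cells in this interval, so the part of plating cannot be told apart from that of time.

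Of 16 immediate early genes 6 rose and 1 fell: *Myc*, *Egr1* and *Fos* rose by 2.07, 1.78 and 1.31, and *Ier3* fell by 1.75. Without day 6 replicate 3 the count of rises was 3. In the cell cycle list 3 of 28 rose, namely *Ccnd1*, *Ccnd2* and *Ccne2*, with *Ccnd2* rising by 2.44, and *Mki67* had a log2 fold change of 0.27. Among cyclin-dependent kinase inhibitors *Cdkn1c* rose by 1.35 and *Cdkn2a* fell by 1.60, of 6 listed.

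Chromatin genes shifted in both directions. In the Polycomb list *Cbx2* and *Cbx8* rose by 1.09 and 1.37, and *Cbx7*, *Ezh1* and *Phf19* fell by 1.22, 1.16 and 1.56, of 18. Without day 6 replicate 2 the rises numbered 0. In the DNA methylation list 2 of 11 fell, *Dnmt3l* by 1.56 and *Tet1* by 1.44. In the germ cell list *Nanos3* rose by 1.10 and *Dazl* and *Ddx4* fell by 1.45 and 1.33, of 9.

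The remaining lists held few calls. Basement membrane genes rose in 3 of 16 cases (*Col4a5*, *Col4a6* and *Lama4*). ATF4 stress genes rose in 2 (*Atf3*, *Atf5*) and fell in 2 (*Ddit3*, *Ddit4*) of 17 cases. Cholesterol and fatty acid genes had 1 rise (*Scd2*) of 23, p53 targets 1 (*Perp*) of 13 and MHC class I genes 1 (*Erap1*) of 11. Of 88 ribosomal protein genes 2 fell, the retrogene-like *Rpl10l* and *Rpl39l*, whose reads may be shared with their parent genes. Limma called 0 of 6 genes of the two-cell-like state, with 1 at an unadjusted p under 0.05, and 0 of 11 mitochondrially encoded genes, with 3 at an unadjusted p under 0.05. Among lists with 2 calls in a direction, leaving out 1 library left 1 ATF4 rise, 1 DNA methylation fall and 1 germ cell fall (day 6 replicate 2), and 0 ribosomal falls (day 6 replicate 3). The calls of *Erap1* and *Fos* were lost in each fit that left out 1 library, and that of *Perp* without day 4 replicate 1 or day 6 replicate 3. Without day 6 replicate 2 the calls of *Adm*, *Cbx2*, *Cbx8*, *Ccnd1*, *Cdkn1c*, *Cdkn2a*, *Ezh1*, *Dnmt3l*, *Dazl*, *Nanos3*, *Lama4*, *Atf5*, *Rpl10l* and *Rpl39l* were lost too. Other single libraries also ended calls: day 4 replicate 1 those of *Cbx2*, *Ccnd1*, *Dazl*, *Dnmt3l* and *Rpl39l*, day 4 replicate 2 those of *Atf5* and *Cdkn1c*, day 4 replicate 3 those of *Atf5*, *Cdkn1c* and *Nanos3*, and day 6 replicate 3 those of *Adm*, *Atf5*, *Cbx8*, *Cdkn2a*, *Dnmt3l*, *Egr1*, *Nanos3*, *Rpl10l* and *Rpl39l*.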
